A study of Homo sapiens with 20 samples.

Results

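This pooled screen asked which guide RNAs became rarer or more common in HAP1 cells over 14 days of HfCas13d. It comprises 6 of the 20 libraries of the study, 3 harvested as input at day 0 and 3 at day 14. Its members are the 40070 guides that have both an ID and values in all 6 libraries, of which 39075 target a transcript (IDs beginning UID_) and 995 are non-targeting controls (IDs beginning NT_). The members were taken by their ID and not by any measured value. Guides are given by number, because the tables used here pair no number with a sequence or a gene.

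Cas13d is a nuclease that is led by a guide RNA to a matching transcript and cuts that RNA, leaving the genome intact. The wild-type enzyme, once active, can also cut bystander RNA, and HfCas13d is a variant engineered to keep on-target cutting with less of this collateral activity. In a dropout screen each cell carries a single integrated guide, so the share of a guide in genomic DNA follows the share of cells that carry it. A guide that lowers fitness through its target, or in any other way, becomes rarer with time, and guides without a target show how much abundance drifts without any targeting.

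HAP1 is a near-haploid line derived from a chronic myelogenous leukaemia. All 6 libraries came from HAP1 cells with the nuclear nuclease under doxycycline control. These cells had received guides by lentivirus at low multiplicity in separate infection replicates. Puromycin selection came before induction, the induction medium also held puromycin and blasticidin, and both days are labelled with doxycycline induction. The day 0 harvest was the input and the day 14 harvest followed induction. No day 14 library without induction or without the nuclease is among the 6, so time in culture and nuclease induction cannot be told apart. The non-targeting guides went through both, and separate only guides with a target from guides without one. The labels do not say whether the line is a single clone, and p-values measure the spread between infection replicates of this line only.

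The values are normalised read abundances, called signal below. After subtraction of 1, 100% of values were whole numbers of reads times a step constant within the library (tolerance 0.01 of a read), which gave the reads behind each guide. Median reads per guide at day 0 were 177, 191 and 225, and the day 14 libraries had 171, 204 and 353. The day 14 replicate 3 library was the deepest, with 14338227 reads over the listed guides, and day 14 replicate 1 the shallowest with 6987973. The lowest signal in any day 0 library was 51.6, and 0 guides lay under 50 in any of the 3, whereas 62, 76 and 51 guides lay under 50 in the day 14 libraries. Rows without an ID and values numbered 48, and they left 45 gaps in the targeting numbers. What the authors filtered on is not stated, and guides under 50 at day 0 were not analysed here. The lowest values at day 14 still rested on reads, with at least 5, 4 and 9 reads per guide in the 3 libraries.

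Most guides changed little, and the change over 14 days lay in a thin lower tail. By limma with Benjamini-Hochberg adjustment over all 40070 guides, 285 targeting guides fell (0.711% of the guides tested) and 25 rose (0.0624%). Of the 285, 159 fell by more than 1 on the log2 scale, 50 by more than 2 and 11 by more than 3. Of the 25, 1 rose by more than 1. The median targeting guide changed by -0.01 on the log2 scale and 92.7% of them changed by less than 0.3 in either direction. The day 14 and day 0 libraries did not overlap for any called guide. Lack of overlap was common, however: all 3 day 14 values lay below all 3 day 0 values in 6.32% of guides tested and above them in 4.73%. The count of rising guides moved with single libraries and with the model. It was 15 without a trend in the variance prior and 53 with the replicate number as a block. It was 12 when either day 0 replicate 1 or day 0 replicate 2 was left out, 11 without day 0 replicate 3, and 58 without day 14 replicate 2.

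The tails of the 2 classes of guide lay further apart on the lower side than on the upper side, a description with no test. The lowest percentile of targeting guides lay at -0.53 and that of non-targeting guides at -0.38, while the highest percentile lay at 0.37 and 0.36. Of the targeting guides 357 lay below the lowest non-targeting guide and 22 above the highest. Of 995 non-targeting guides limma called 0 and voom on the recovered reads called 0, and 41 (4.12%) had an unadjusted p under 0.05 by limma, 19 of them lower and 22 higher. Among targeting guides 2296 (5.88%) had an unadjusted p under 0.05, 1453 of them lower and 843 higher. Without overlap between days, 6.37% of targeting and 4.32% of non-targeting guides lay lower at day 14, and 4.72% and 5.03% lay higher. The classes differ greatly in size, which bears on their extremes but not on these shares.

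UID_037532 fell most of all guides. Its signal was 199, 203 and 232 in the day 0 libraries and 7.38, 13.8 and 15.7 in the day 14 libraries, which correspond to 5, 12 and 24 reads at day 14. Its log2 fold change was -4.17 ± 0.34 (SE, n = 3 per day), so that 5.54% of its day 0 level was left, with a limma adjusted p of 2.32e-10. The next was UID_034724, with a signal of 146, 129 and 161 at day 0 and 8.66, 5.26 and 13.9 at day 14. It changed by -4.08 ± 0.43 (SE, n = 3 per day). In both guides every day 14 library was lower than every day 0 library.

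UID_033445 had a signal of 174, 118 and 116 at day 0 and 9.93, 5.26 and 13.9 at day 14. UID_037529 had a signal of 136, 154 and 149 at day 0 and 12.5, 13.8 and 6.53 at day 14. UID_037536 had a signal of 136, 75.1 and 182 at day 0 and 11.2, 7.38 and 10.8 at day 14. These 3 guides changed by -3.90, -3.82 and -3.68 on the log2 scale, all past the threshold, and the day 0 values of UID_037536 varied more between libraries than those of the others. UID_033442 and UID_033441, neighbours in number, had tighter values. The first had a signal of 296, 364 and 309 at day 0 and 41.8, 39.3 and 34.2 at day 14, and the second a signal of 297, 264 and 310 at day 0 and 31.6, 23.3 and 29.9 at day 14. Their changes of -3.07 ± 0.20 and -3.37 ± 0.23 (SE, n = 3 per day) carried the lowest adjusted p-values among the 12 guides that fell furthest, 1.41e-12 and 1.78e-12.

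Together these 12 guides fell to between 5.54% and 12.6% of their day 0 level, with between 4 and 54 reads per library at day 14. The remaining members of the group were UID_035892 at -3.46, UID_037531 at -3.39, UID_038588 at -3.18, UID_034434 at -3.08 and UID_031827 at -2.99. The 12 guides belong to 7 runs of 8 consecutive numbers, described below, and 4 of them to the same run. With a pseudocount of 10 their changes ranged from -3.33 to -2.57 in place of -4.17 to -2.99, so the size of these falls depends on how low values are treated. All 12 stayed past the threshold without any 1 of the 6 libraries.

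The 285 lower guides had a median change of -1.11 and a median signal of 214 at day 0 and 98.5 at day 14. The smallest fall among them was -0.54, and the smallest rise among the 25 higher guides was 0.46. Their falls were not limited to scarce guides. When targeting guides were split into 4 groups of similar size by signal in day 0 replicate 1 and the change was taken from the other 5 libraries, 50 of 10041 guides in the lowest group, 39 of 9745 in the next, 40 of 9689 in the third and 29 of 9600 in the highest lay below -1. The shares were 0.498%, 0.400%, 0.413% and 0.302%. The number of guides above 0.5 fell along the same groups from 42 to 27, 20 and 15.

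The rising guides moved far less. UID_000587 rose most, from a signal of 267, 202 and 180 at day 0 to 483, 514 and 398 at day 14. Its log2 fold change was 1.11 ± 0.14 (SE, n = 3 per day), a 2.16-fold rise (limma adjusted p = 9.33e-07). UID_029294 went from 124, 92.4 and 109 at day 0 to 260, 181 and 179 at day 14, a change of 0.92 ± 0.19 (SE, n = 3 per day; limma adjusted p = 0.00365). This call was lost without day 0 replicate 2 (adjusted p = 0.0734) and without day 14 replicate 1 (adjusted p = 0.0922).

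UID_039042 had a signal of 227, 197 and 215 at day 0 and 432, 347 and 370 at day 14. UID_019819 had a signal of 230, 236 and 153 at day 0 and 340, 347 and 392 at day 14. UID_035813 had a signal of 182, 229 and 239 at day 0 and 377, 396 and 348 at day 14. These 3 guides rose by 0.84, 0.82 and 0.79 on the log2 scale and their libraries did not overlap between days. The other 7 of the 12 guides that rose furthest lay between 0.62 and 0.69. Of the 12, 4 lost the call without day 0 replicate 1, 3 without replicate 2 and 5 without replicate 3 of that day. Leaving out day 14 libraries cost 3 calls for replicate 1, 0 for replicate 2 and 1 for replicate 3. UID_005346, UID_015056 and UID_029291 each lost it under 3 of these 6 omissions or more.

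The lowest non-targeting guide, NT_00154, had a signal of 94.8, 175 and 116 at day 0 and 71.2, 100 and 83.9 at day 14. Its change of -0.57 ± 0.23 (SE, n = 3 per day) had an adjusted p of 0.674, and its days overlapped. The highest, NT_00066, had a signal of 131, 198 and 209 at day 0 and 245, 285 and 281 at day 14, a change of 0.62 ± 0.16 (SE, n = 3 per day; limma adjusted p = 0.0624), although its days did not overlap. It would have ranked among the rising targeting guides by size, and it passed the threshold without day 0 replicate 3 (adjusted p = 0.0494).

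Guides picked as lowest in 1 pair of libraries mostly lay below 0 again in the other libraries. Guides picked as highest lay near 0 there at the median. Guides were ranked by the difference between day 14 replicate 2 and day 0 replicate 2, and the lowest and highest percent of targeting guides, 391 guides each, were read in the mean of the other libraries. The lowest had a median of -1.08 in the libraries that chose them and -0.53 in the others, where 51.1% lay below -0.5 against 1.35% of all targeting guides. The highest had a median of 0.75 in the choosing libraries and 0.02 in the others, where 2.56% lay above 0.5 against 0.456% of all targeting guides. Chosen on the replicate 1 libraries, the medians in the others were -0.62 and 0.03, and chosen on the replicate 3 libraries, which include the deepest library, -0.82 and 0.02. The 391 highest far outnumber the 25 rising guides, so their median cannot show whether the called rises were seen again. The 25 were not read in this way. Of the 10 lowest non-targeting guides chosen in the same way, 0 lay below -0.5 in the other libraries in each of the 3 rounds. The change of targeting guides correlated between such library pairs at 0.19 to 0.26 across guides, and that of non-targeting guides at -0.04 to -0.01. Guides are not independent replicates, so these correlations are descriptions.

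Consecutive guide numbers formed runs of 8, called sets here, whose members tended to change alike. The labels do not describe these sets, and whether a set shares a target is not given in the tables. Their size and borders were inferred from the likeness of neighbouring guides in these data, so the correlations that follow describe the sets and are no separate evidence for them. Across targeting guides, the change correlated at 0.15 to 0.17 between guides 1 to 7 numbers apart within a set and at 0.01 to 0.03 between guides equally far apart in different sets. The intraclass correlation over 4846 complete sets was 0.16. A guide that shared a set with a lower guide was itself lower in 16.9% of cases, against 0.729% of all targeting guides. Lower guides were uneven along the numbering, at 2.40% of targeting guides above 30000 and 0.220% up to 30000. The comparison with all targeting guides does not allow for that. The 1153 guides that were not called lower but shared a set with one had a median of -0.10, and 68.8% of them lay below 0. The median of all targeting guides was -0.01. In sets whose mean was not called, described below, 52.0% of guides lay below 0.

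Set means fell in 179 of 4890 sets (3.66% of sets tested) and rose in 33 (0.675%), by limma on the mean log2 signal per set and library with Benjamini-Hochberg adjustment over sets. All 3 day 14 means lay below all 3 day 0 means in 9.78% of sets and above them in 4.5%. Without day 0 replicate 3, 19 sets rose. With the median of the guides in place of their mean 69 sets fell and 11 rose. With borders moved by 4 numbers 143 sets fell and 9 rose. Means of non-targeting guides over runs of 8 numbers, 125 in all, ranged from -0.16 to 0.15. Of the targeting sets 217 lay below that range and 47 above it. The 4890 sets far outnumber the 125 runs, so some sets would pass either end of the range even if the classes were alike. These counts are a description and no test.

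Guides varied more within the falling sets than within the other sets. Over the 179 lower sets the median of the lowest guide was -1.14, that of the second lowest -0.53 and that of the highest 0.07. The median SD between guides of a set was 0.41, against 0.15 in the sets that were not called. Over the 33 higher sets the median of the lowest guide was -0.02 and that of the highest 0.51, the median SD between guides was 0.18, and 89.8% of their guides lay above 0. All guides lay above 0 in 12 of these 33 sets. In the lower sets 82.3% of guides lay below 0, and all guides did so in 46 of the 179. Both kinds of set were chosen by their mean, so these values describe them and are no test.

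The set UID_037529 to UID_037536 fell furthest, with a mean change of -2.40 ± 0.10 (SE, n = 3 per day; limma adjusted p = 1.33e-63). Of its 8 guides 6 fell, namely UID_037529, UID_037531, UID_037532 and UID_037536 named above, UID_037530 at -1.56 and UID_037535 at -2.66. The other 2 did not change past the threshold. UID_037533 had a signal of 255, 257 and 280 at day 0 and 278, 294 and 278 at day 14, and UID_037534 a signal of 262, 301 and 288 at day 0 and 334, 229 and 262 at day 14. Guides of the same set thus ranged from -4.17 to 0.10. The adjusted p of the set mean draws on a variance prior shared across sets, and its size moved with the settings. By limma it was 3.73e-25 under total signal scaling and 1.2e-242 without day 14 replicate 2. Only its side of the threshold is therefore read here.

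The set UID_038585 to UID_038592 had the most lower guides, 7 of 8, at moderate sizes. Its mean changed by -1.44 ± 0.08 (SE, n = 3 per day). UID_038588 lay at -3.18, and 6 others lay between -1.96 and -0.81. UID_038590 had a signal of 225, 162 and 174 at day 0 and 52.0, 45.7 and 45.2 at day 14, and UID_038592 a signal of 270, 269 and 285 at day 0 and 61.0, 93.6 and 69.8 at day 14. UID_038591 was the exception at 0.00, with a signal of 214, 218 and 198 at day 0 and 196, 277 and 172 at day 14.

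Other sets were divided into guides with large falls and guides near 0. In the set UID_033441 to UID_033448 the guides UID_033441, UID_033442 and UID_033445 fell, with changes of -3.37, -3.07 and -3.90, while 4 guides lay between -0.03 and 0.14 and UID_033448 at -0.36 with an adjusted p of 0.815. In the set UID_034433 to UID_034440 the guides UID_034434 and UID_034437 fell, with changes of -3.08 and -2.73. UID_034433 fell from a signal of 175, 170 and 188 at day 0 to 45.6, 37.2 and 51.4 at day 14, and the other 5 lay between -0.49 and 0.12. The median guide of that set changed by too little for a call when medians replaced means (adjusted p = 0.0883). In the set UID_034721 to UID_034728, where 7 guides have values, UID_034724 and UID_034725 fell, with changes of -4.08 and -2.02, and the others lay between -0.38 and -0.10.

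In the set UID_035889 to UID_035896 the guides UID_035889, UID_035892 and UID_035895 fell, with changes of -2.27, -3.46 and -1.30, and UID_035896 lay at 0.25 with an adjusted p of 0.954. In the set UID_038697 to UID_038704 4 guides fell, from -2.13 for UID_038700 to -0.95 for UID_038698, and all 8 lay below 0. The set UID_002625 to UID_002632 was the only one of the 8 sets named here with a low number. Its guides UID_002626, UID_002627, UID_002628 and UID_002631 fell, with changes of -2.27, -0.77, -2.57 and -1.34. UID_002628 had a signal of 159, 177 and 191 at day 0 and 38.0, 35.1 and 19.4 at day 14, while UID_002632 in the same set had a signal of 155, 133 and 164 at day 0 and 159, 150 and 161 at day 14. Mean changes of these 3 sets, in the order given, were -1.05, -0.95 and -0.98.

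Over all sets, 180 held at least 1 lower guide. Of these, 113 held 1, 43 held 2, 17 held 3, 3 held 4, 2 held 5, 1 held 6 and 1 held 7, while 0 held 8. Every set with 2 or more lower guides was called lower as a set. Set means include these same guides, so the agreement is a description and no separate evidence. Of the 113 with a single lower guide 70 were called lower. Another 42 sets were called lower with no lower guide of their own. Lower sets were neighbours in 11 cases, a count that was not compared with random placement.

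The set UID_000425 to UID_000432 rose furthest, with a mean change of 0.45 ± 0.06 (SE, n = 3 per day; limma adjusted p = 4.29e-12). All 8 guides lay above 0 and 6 of them above 0.4, but only UID_000425 and UID_000427 passed the test as single guides. UID_000425 had a signal of 271, 266 and 237 at day 0 and 468, 344 and 379 at day 14, and UID_000429 a signal of 280, 296 and 256 at day 0 and 377, 381 and 395 at day 14, with an adjusted p of 0.0574. In the set UID_015049 to UID_015056 all 8 guides lay above 0 as well, from 0.15 to 0.64, and the mean change was 0.38.

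The sets UID_039041 to UID_039048 and UID_000585 to UID_000592 rose by 0.36 and 0.35 on average, with 7 of 8 guides above 0 in each. The latter was uneven. UID_000587 and UID_000592 rose by 1.11 and 0.65, whereas UID_000586 lay at -0.05 and UID_000589 at 0.00. All 4 rising sets named here stayed past the threshold without any 1 of the 6 libraries.

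The place of a guide within its set went with the frequency of falls. Places 1 to 4 held 183 lower guides among 19539 (0.937%) and places 5 to 8 held 102 among 19536 (0.522%). By place, from 1 to 8, the lower guides numbered 47, 47, 41, 48, 33, 20, 25 and 24. Guides below -1 numbered 107 in the first 4 places and 52 in the last 4. The same order was seen in each day 14 library on its own: guides more than 1 below their day 0 mean on the log2 scale numbered 120 and 60 in replicate 1, 141 and 82 in replicate 2, and 101 and 49 in replicate 3. These 3 comparisons share the day 0 libraries. Rising guides numbered 15 and 10. The split of places was chosen after the values were seen and has no test.

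The planned measure of place was the slope of log2 signal over places 1 to 8. It was 0.0044, 0.0047 and 0.0048 per place at day 0 and 0.0064, 0.0069 and 0.0054 at day 14, so that signal rose slightly along a set already at day 0 and more so at day 14. For the difference of 0.0016 the exact permutation test, two-sided, gave p = 0.1, which is as low as 20 regroupings of 6 libraries can go. Median signal went from 217 at place 1 to 223 at place 8 at day 0, which means that place and starting abundance moved together, and their part in the falls was not tested.

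Falls were also uneven along the numbering of the library. Of targeting guides numbered up to 30000, 0.220% were lower, and of those above 30000, 2.40%, while rising guides were 0.0601% and 0.0769%. All 12 of the guides that fell furthest had numbers above 30000. In ranges of 5000 numbers up to 30000 the lower guides numbered 13, 8, 22, 12, 7 and 4, then 115 and 104 above it, while median day 0 signal stayed between 218 and 224 in all ranges. The border at 30000 was chosen after the values were seen and has no test.

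The spread of abundance across guides was compared between days in each class. The SD of log2 signal across them was 0.394, 0.401 and 0.369 at day 0 and 0.455, 0.473 and 0.408 at day 14, a difference of 0.057. Among non-targeting guides it was 0.429, 0.435 and 0.392 at day 0 and 0.460, 0.478 and 0.407 at day 14, a difference of 0.030. The days did not overlap for targeting guides (two-sided exact permutation p = 0.1, the smallest possible) and did for non-targeting guides (exact p = 0.3). Taken by replicate number, the SD was higher at day 14 in all 3 pairs in both classes, and sign flips within numbers gave an exact p of 0.25, the smallest possible, for each. The difference between the 2 changes was not tested.

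The share of targeting guides more than 2 below their library's median on the log2 scale was 0.0256%, 0.0154% and 0.0051% at day 0 and 0.205%, 0.241% and 0.159% at day 14 (exact permutation p = 0.1, the smallest possible). The lowest day 0 signal among the listed guides was 51.6, against day 0 medians of 216 to 224 for targeting guides. Hardly any listed guide could therefore lie this far below the median at day 0. The low share at day 0 was largely fixed by the list, so the comparison of days cannot decide whether it grew. The mean log2 signal of targeting guides lay above that of non-targeting guides by 0.18, 0.18 and 0.14 at day 0 and by 0.16, 0.15 and 0.14 in the later libraries. The days overlapped, with a difference of -0.02 (exact permutation p = 0.4). With 3 libraries per day this test cannot go below 0.1, so it cannot show whether the class as a whole shifted.

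Spread between libraries of the same day exceeded the counting error of the recovered reads, and did so more at day 14. For targeting guides the SD of log2 signal between libraries was 0.165 at day 0 and 0.225 at day 14, where counting alone gives 0.106 and 0.101. For non-targeting guides it was 0.171 and 0.238 against 0.113 and 0.106. The ratios were 1.55 and 2.22 for targeting and 1.52 and 2.24 for non-targeting guides. The spread thus grew in both classes of guide. Reads without molecular identifiers are not independent molecules, so these values cover counting error only.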

How the data were processed

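The authors sequenced guide amplicons from genomic DNA and deposited normalised signal per guide, with a normalisation and filters not given in the sources used here. Among the tools in the submitters' processing notes are Bowtie 1.1.2 and cutadapt 1.13, with GRCh38 as build. The table has 40118 lines of guides, of which 48 lack an ID and values. Each library's log2 signal was scaled by a trimmed mean of the log2 deviations of non-targeting guides (30% trimmed at either end). The 2 days were then compared in limma 3.58.1 (R 4.3.3) with an intensity-dependent variance prior. Guides under a mean signal of 10 would have been left out, and there were 0. Calls needed a Benjamini-Hochberg adjusted p under 0.05. Set means used sets with at least 75% of 8 guides. Single values per library were compared by two-sided exact permutation over libraries. The fitting was tested on simulated data.

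Named guides were the 12 lowest and 12 highest called guides without overlap between days and the lowest and highest non-targeting guide, and named sets the 8 lowest and 4 highest. The members, sets and rules were chosen with earlier results of these data known. Same-numbered libraries of the days deviated together with correlations of 0.0762, 0.113 and 0.107, and other pairs with -0.076 to -0.0175. The labels do not say that numbers pair libraries, and not every pair passed 0.1, so no replicate block was used. The alternatives are given at the end.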

Additional observations from a re-analysis of the deposited data

How the results depend on the processing

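Under other scalings, pseudocounts, a robust variance prior, a minimum mean signal of 50 (which removed 0 guides) and voom on recovered reads, lower guides numbered 273 to 285 and higher guides 20 to 29, and lower sets 154 to 183 and higher sets 33 to 38. Without a trend in the variance prior 15 guides rose, 14 of them among the 25. A required change of 1 or more on the log2 scale left 159 lower and 1 higher guide. By limma it left 6 lower and 0 higher sets. With no required change, 390 of 4890 sets were lower and 124 higher at an unadjusted limma p under 0.05. Such counts include sets that pass by chance. With the median of the guides of a set 69 sets fell and 11 rose, and with borders moved by 4 numbers 9 rose. With a replicate block 53 guides rose, 322 guides fell, and 1 non-targeting guide, NT_00066, was called (adjusted p = 0.0111). Every library correlated best with its own number, as a hint from the data. The block left the single values as they were, with an exact p of 0.25 or 0.5 where 0.25 is the smallest that sign flips allow.

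With each library left out in turn, 190 to 302 guides fell and 11 to 58 rose, 131 to 182 sets fell and 19 to 36 rose, and 0 to 1 non-targeting guides were called. No named guide or set reversed its direction in any alternative run. Of the named guides' values under the alternatives 412 kept their side of the threshold, 28 lost the call, 11 of these by the required change of 1 alone, and 2 gained it. Of the named sets' 232 kept it and 7 lost it. The planned edgeR tests were not run, and voom on the recovered reads took their place. Its weights entered the fit of guides only, and set means in that run were fitted without them. Depth limits the lowest guides, which rest on 4 to 54 reads at day 14.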
